A study of Mus musculus with 48 samples.

Results

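The 10 genes described here belong to the working equipment of astrocytes: Glul, Slc1a2 and Slc1a3 of glutamate clearance, Gja1 and Gjb6 of gap junctions, Aqp4 of water transport, and Gfap, Aldh1l1, Aldoc and S100b, which are widely used to mark the cell type. They were chosen by name, as genes reported to respond to manganese or to mark the cells that take it up. The choice was made with earlier results of these data known. All 10 were found among the 57126 gene identifiers of the count table, and all 10 were among the 16360 genes with enough counts to be tested. The tissue was hippocampus of CD-1 mice, an outbred stock, at 2 months of age; poly(A)-selected RNA of 48 animals was sequenced. There were 8 groups of 6 animals, male or female offspring of dams that drank water with neither metal (control), manganese at 2 g/L (Mn), lead at 100 ppm (Pb), or both metals at those doses (Pb+Mn). Exposure of the dams began 2 weeks ahead of mating, lasted 8 weeks and ended when pups were weaned at day 21, and all groups shared the stock, tissue and age. The labels do not give litters, so each p-value rests on the variation among animals, some of which may be pups of 1 dam.

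Astrocytes wrap synapses and blood vessels. The transporters GLT-1 (Slc1a2) and GLAST (Slc1a3) carry released glutamate into the astrocyte together with sodium, and glutamine synthetase (Glul), an enzyme with manganese or magnesium at its active site, turns it into glutamine that neurons take back. The connexins 43 (Gja1) and 30 (Gjb6) join astrocytes into a network through which potassium and small metabolites spread, and aquaporin 4 (Aqp4) sits in the endfeet on vessels.

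Total counts per library ranged from 6.27 to 27.6 M (M, mega; median 15.1 M), and every member had at least 337 counts in every library. Levels are given as CPM, counts brought to a common library total after TMM scaling (trimmed mean of M values), which makes libraries of different depth comparable. Lists of marker genes were read as summed levels, with no cut-off for hippocampal identity: the 10 dentate granule cell genes summed to between 437 and 1012 CPM per library. The 13 listed genes of thalamus and habenula, tissue that borders the hippocampus, summed to between 155 and 1287 CPM. The 12 choroid plexus genes ranged more widely, from 184 CPM in a female Mn library to 10454 CPM in a male Pb library. The libraries were thus unequal in the genes of both lists. A transcript length trend was computed for each library as the slope of its centred log2 CPM on log2 transcript length, so that a negative slope means relatively more short transcripts. It was most negative in 2 libraries, male Pb 6 at -0.40 and female Pb 2 at -0.36.

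The start-site windows of 3 members are shown because these genes return below: Glul had the lowest p of any member when Mn was compared, Slc1a3 was among the least variable members, and S100b was the most variable. Each window runs from 250 bases before to 50 bases after the gene start listed by RefSeq (build GRCm38.p6), on the gene's own strand, at chr1:153899679-153899978 for Glul (plus strand), chr15:8710758-8711057 for Slc1a3 (minus strand) and chr10:76253586-76253885 for S100b (plus strand). Capitals mark matches on either strand to TTGGC, the half-site of nuclear factor I (NFI, factors that promote the astrocyte fate), to GGGCGG, known as the GC box, or to TATAAA, the core of a classical start-site element. The letters ACAATG, bound by SOX factors, were also searched and are in none of the windows.
Glul: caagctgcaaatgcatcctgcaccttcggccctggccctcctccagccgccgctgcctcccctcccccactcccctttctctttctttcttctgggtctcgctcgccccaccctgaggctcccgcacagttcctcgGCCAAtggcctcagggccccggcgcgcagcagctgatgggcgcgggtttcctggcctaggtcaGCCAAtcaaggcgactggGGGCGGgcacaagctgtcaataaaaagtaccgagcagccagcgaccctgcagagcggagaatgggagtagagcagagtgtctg
Slc1a3: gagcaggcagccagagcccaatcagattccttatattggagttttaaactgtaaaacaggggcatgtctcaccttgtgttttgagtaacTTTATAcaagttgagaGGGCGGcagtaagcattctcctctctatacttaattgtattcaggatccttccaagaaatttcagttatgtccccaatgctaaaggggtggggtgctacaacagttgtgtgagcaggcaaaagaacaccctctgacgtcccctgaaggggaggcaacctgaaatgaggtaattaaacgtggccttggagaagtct
S100b: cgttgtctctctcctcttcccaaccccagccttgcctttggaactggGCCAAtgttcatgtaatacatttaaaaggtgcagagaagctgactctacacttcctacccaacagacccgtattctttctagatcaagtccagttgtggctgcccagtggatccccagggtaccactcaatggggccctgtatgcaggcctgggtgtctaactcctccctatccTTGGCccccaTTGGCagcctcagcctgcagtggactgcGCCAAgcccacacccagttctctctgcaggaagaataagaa
The S100b window held 4 NFI half-sites, the Glul window 2 of them with 1 GC box, and the Slc1a3 window 1 GC box with 1 TATAAA match on the reverse strand. Of all 32817 distinct 300-base windows in the same table, 46.7% held an NFI half-site, 35.6% a GC box, 13.6% the TATAAA letters and 12.6% the SOX letters, so these letters are common. Windows were listed for 9 of the 10 members, and the matches are a description of the letters only.

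Per transcript length, Glul was the most abundant member, with a median of 727 CPM per kilobase (kb) of its longest transcript over the 48 libraries. In plain CPM Slc1a2 was higher, with a median of 4784 CPM beside 2029 CPM for Glul. The longest transcript has 11595 bases for Slc1a2 and 2792 for Glul, so the order depends on the lengths used. The transporter Slc1a2 (413 CPM per kb) and the glycolytic enzyme aldolase C (Aldoc, 400.1 CPM per kb) followed close together, and Slc1a2 exceeded Aldoc in 31 of 48 libraries. The filament protein Gfap (246 CPM per kb) and Slc1a3 (224 CPM per kb) formed the next neighbours, with Gfap higher in 33 of 48 libraries. The calcium-binding protein S100b (108 CPM per kb) and Gja1 (100.1 CPM per kb) did not separate either, S100b being higher in 27 of 48 libraries. Aqp4 (40.6 CPM per kb) and Gjb6 (39.3 CPM per kb) lay together, Aqp4 being higher in 22 of 48 libraries. Aldh1l1, a folate enzyme used to label astrocytes, was lowest at 16.6 CPM per kb and below Gjb6 in all 48 libraries. The other steps, Glul over Slc1a2, Aldoc over Gfap and Gja1 over Aqp4, held in 48 of 48 libraries, and Slc1a3 over S100b in 47.

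**Figure D1:**
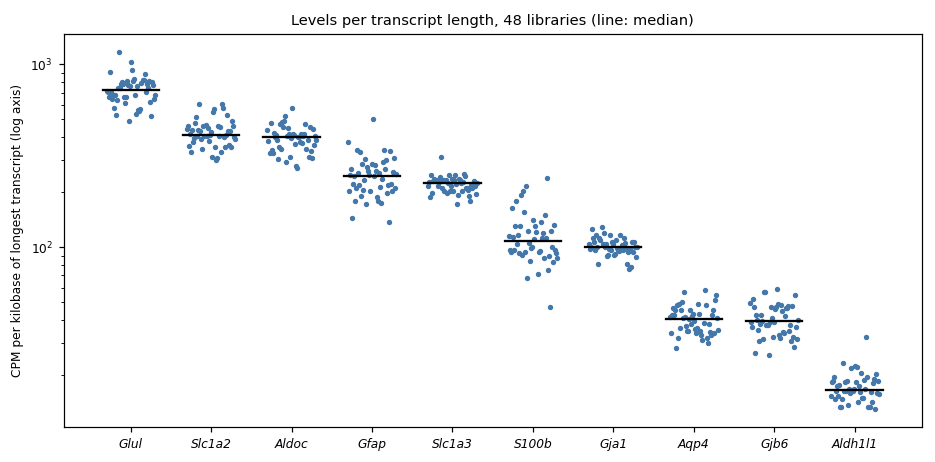
Level of each member in CPM per kilobase of its longest transcript (log axis), one point per library, with a line at the median of the 48 libraries. Glul lies highest at a median of 727 and Aldh1l1 lowest at 16.6, and the points of Slc1a3 and Gja1 are the most tightly packed.

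The members differed in how evenly animals of a group expressed them. The standard deviation (SD) of log2 CPM within groups was 0.14 for both Gja1 and Slc1a3, lower than in all but 6.8% and 7.3% of the genes tested. It was 0.38 for Gfap and 0.43 for S100b, against a median of 0.28 over all genes tested. S100b spanned a 5.05-fold range over the 48 libraries, from 70.2 CPM in female Pb 5 to 355 CPM in female Pb 2, whereas Gja1 spanned 1.68-fold and Slc1a3 1.81-fold.

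None of the 10 members passed an adjusted p of 0.05 in any exposure comparison, by edgeR's quasi-likelihood test with Benjamini-Hochberg adjustment over all genes tested. In each exposure comparison the share of all 16360 genes past that threshold was also 0%. DESeq2 and limma voom also called 0 members in each of the 22 comparisons. The share of all genes called by these tools is not given here. At an unadjusted p under 0.05, 0 members passed in males for Mn (1.92% of all genes tested) or Pb+Mn against control (2.24% of all genes), and 0 in females for Mn (2.59%), Pb (2.25%) or Pb+Mn (1.46%). In male Pb against control 2 of 10 members passed it, beside 11.5% of all genes. For Pb+Mn against Mn alone 0 members passed it in males (3.81% of all genes) and 0 in females (2.38%). With the sexes averaged 0 passed it for Pb (11.1% of all genes) and 0 for Pb+Mn against control (4.06%). The median standard error (SE) of a member's log2 fold change between 2 groups was 0.14, and in bulk tissue fewer astrocytes and less RNA per astrocyte cannot be told apart.

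**Figure D2:**
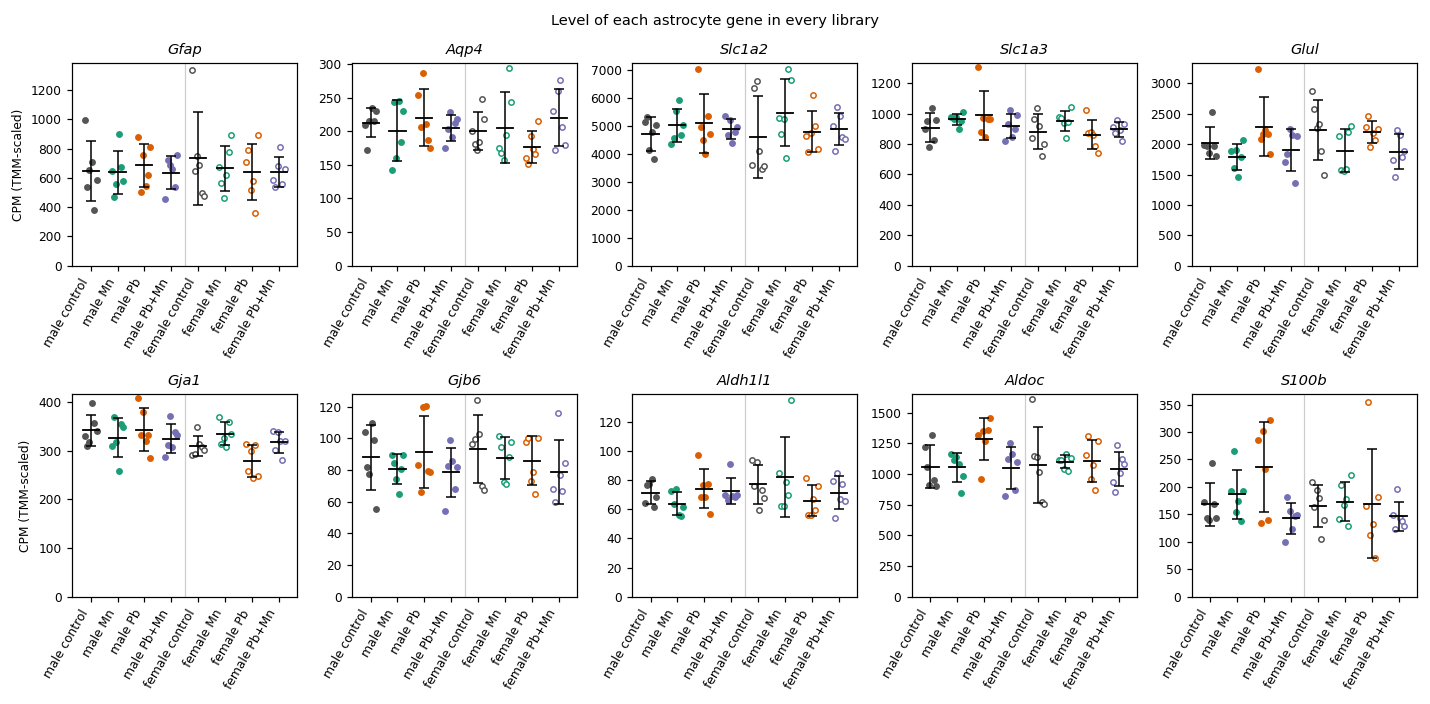
Level of each member in CPM in every library, males as filled and females as open points, with the mean and SD of the 6 animals per group as bars. The groups overlap in every panel, and the separate high points include female control 1 for Gfap (1336 CPM) and male Pb 1 for Glul (3242 CPM).

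Glul had the lowest p of any member for Mn against control averaged over the sexes, without passing the adjusted threshold. In males the lowest, median and highest level was 1801, 1973 and 2531 CPM in controls, 1468, 1835 and 2064 in Mn, 1838, 2163 and 3242 in Pb and 1357, 1986 and 2253 in Pb+Mn. In females it was 1486, 2299 and 2879 CPM in controls, 1551, 1859 and 2298 in Mn, 1957, 2216 and 2461 in Pb and 1460.3, 1839 and 2237 in Pb+Mn. Every exposed group overlapped its control, and 5 of 6 male Mn animals, 3 of 6 male Pb+Mn animals, 5 of 6 female Mn animals and 6 of 6 female Pb+Mn animals lay below the control mean of their sex. The log2 fold change of Mn against control was -0.18 ± 0.14 in males and -0.25 ± 0.14 in females (SE, n = 6 per group), neither past the threshold (edgeR adjusted p = 1 in both). Averaged over the sexes it was -0.21 ± 0.10 (unadjusted p = 0.0349, adjusted p = 1), the 1 of 10 members with p under 0.05, beside 4.3% of all genes.

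In a comparison chosen after the data were seen, of all 24 animals with Mn in the water against the 24 without, mean Glul was 1864 ± 287 CPM with Mn and 2187 ± 371 CPM without (SD). The ranges, 1357 to 2298 and 1486 to 3242 CPM, overlapped. The log2 fold change was -0.23 ± 0.07 (95% interval -0.37 to -0.09; edgeR unadjusted p = 0.0018, adjusted p = 0.524), and over 56 refits of the same comparison it stayed between -0.26 and -0.20, with adjusted p from 0.302 to 1. Glul was the 1 member of 10 with an unadjusted p under 0.05 there, beside 9.46% of all genes. For Pb in the same layout the Glul difference was 0.06 ± 0.07, and 0 of 10 members had p under 0.05 beside 3.61% of all genes. In Glul the Pb by Mn interaction was -0.08 ± 0.20 in males and 0.02 ± 0.20 in females.

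Against control, the transporters did not share the direction of Glul with Mn. When Mn was added to Pb in males, Slc1a2 (-0.06 ± 0.15), Slc1a3 (-0.11 ± 0.09) and Glul (-0.26 ± 0.14) were all below 0. In females the same comparison gave 0.03 ± 0.15, 0.06 ± 0.09 and -0.23 ± 0.14, and none of these values passed the threshold. Slc1a2 had lowest, median and highest levels of 3834, 4923 and 5313 CPM in male controls, 4352, 4864 and 5936 in male Mn, 4002, 4836 and 7061 in male Pb, beside 4384, 4866 and 5363 in male Pb+Mn. In females these were 3451, 3863 and 6601 CPM in controls, 3854, 5279 and 7047 in Mn, 4079, 4694 and 6121 in Pb and 4108, 4818 and 5679 in Pb+Mn. All groups overlapped. The log2 fold change of Mn against control was 0.09 ± 0.15 in males and 0.24 ± 0.15 in females (adjusted p = 1 in both).

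Slc1a3, the second transporter, was measured with a smaller error. Its mean level was 907 ± 93.1 CPM in male controls, 962 ± 36.4 in male Mn, 988 ± 163 in males given Pb and 918 ± 79.4 in those given both metals (SD, n = 6). In females it was 880 ± 116 CPM in controls, 953 ± 66.9 in Mn, 861 ± 96.2 in Pb and 897 ± 48.8 in Pb+Mn. The ranges of all 8 groups overlapped between 900.4 and 956 CPM. Averaged over the sexes the log2 fold change was 0.10 ± 0.06 for Mn (95% interval -0.03 to 0.23), 0.05 ± 0.06 for Pb (-0.08 to 0.17) and 0.02 ± 0.06 for Pb+Mn (-0.10 to 0.15), none past the threshold.

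The connexins stayed within their spread as well. Gja1 averaged 342 ± 32.0 CPM in male controls, 326 ± 40.3 in male Mn, 342 ± 44.1 in male Pb, beside 324 ± 29.4 in male Pb+Mn, and 309 ± 21.1, 335 ± 24.4, 279 ± 32.9 and 317 ± 22.5 CPM in the same female groups. The lowest group was female Pb, with a lowest, median and highest level of 243, 279 and 314 CPM beside 290.0, 305 and 348 CPM in female controls (log2 fold change -0.15 ± 0.09, adjusted p = 1). Female Pb+Mn exceeded female Pb by 0.18 ± 0.09 on the log2 scale (unadjusted p = 0.0404, adjusted p = 0.958). The sex difference in Gja1 was the smallest p of any member between the sexes: over all exposures females were at -0.11 ± 0.04 relative to males (unadjusted p = 0.0152, adjusted p = 0.721), where 1 of 10 members had p under 0.05 beside 6.77% of all genes, and 0 members passed the adjusted threshold beside 0.0917% of all genes.

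Gjb6, the connexin of mature astrocytes, had lowest, median and highest levels of 55.6, 90.3 and 109.6 CPM in male controls, 64.7, 82.5 and 89.6 in male Mn, 66.2, 81.3 and 120.2 in male Pb, beside 54.4, 82.0 and 98.7 in male Pb+Mn. In females these were 67.3, 97.8 and 124 CPM in controls, 71.1, 91.1 and 102 in Mn, 64.8, 88.3 and 100.4 in Pb and 59.6, 72.4 and 116 in Pb+Mn. The groups overlapped, and the median was lowest in female Pb+Mn. Its log2 fold change for Pb+Mn against control, averaged over the sexes, was -0.21 ± 0.12 (adjusted p = 0.938), while that of Gja1 was -0.02 ± 0.06 (adjusted p = 0.973). With Mn against none over all groups, Gjb6 was at -0.14 ± 0.08 (adjusted p = 0.568).

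Aqp4 had lowest, median and highest levels of 172, 215 and 235 CPM in male controls, 142, 207 and 245 in male Mn, 175, 208 and 286 in male Pb, beside 176, 208 and 229 in male Pb+Mn. In females the levels were 172, 192 and 248 CPM in controls, 157, 185 and 294 in Mn, 151, 169.8 and 215 in Pb and 172, 218 and 276 in Pb+Mn. Female Pb+Mn against female Pb gave the lowest p of the gene, 0.32 ± 0.14 on the log2 scale (unadjusted p = 0.029, adjusted p = 0.958), where Aqp4 and Gja1 were 2 of 10 members with p under 0.05 beside 3.71% of all genes. Aqp4 moved from animal to animal with the mean log2 CPM of the thalamus and habenula genes (below). The summed level of these genes had a median of 541 CPM in female Pb+Mn, 259 in female Pb and 419.5 in female controls. Its ranges were 177 to 714, 194 to 589 and 214 to 1132 CPM. The part of these genes in the Aqp4 difference was not tested.

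Gfap, the intermediate filament that is high in reactive astrocytes, averaged 644 ± 205 CPM in male controls and 638 ± 148, 685 ± 150.1 and 637 ± 116 CPM in the Mn, Pb and Pb+Mn males. In females it averaged 733 ± 315 CPM in controls and 665 ± 154, 640.3 ± 192 and 639.8 ± 103 CPM in Mn, Pb and Pb+Mn. No group mean was outside the range of its controls, and the log2 fold changes against control lay between -0.20 and 0.09 with an SE of 0.21 each, none past the threshold. Aldh1l1 averaged between 63.9 ± 7.88 CPM in male Mn and 82.2 ± 27.4 CPM in female Mn, the latter with 1 animal at 135 CPM and the other five at 62.1 to 85.2 CPM.

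**Figure D3:**
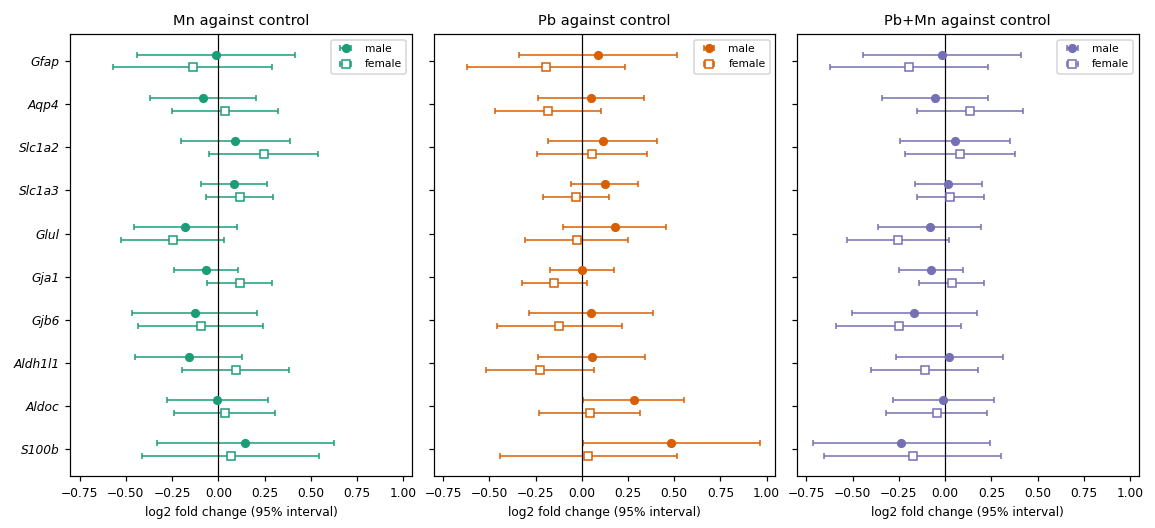
Log2 fold change of each member against control of the same sex with its 95% interval, in panels for Mn, Pb and Pb+Mn, with males as filled circles and females as open squares (n = 6 per group). Intervals of Slc1a3 and Gja1 are the shortest, and only those of Aldoc and S100b in male Pb leave 0, without passing the adjusted threshold.

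Male Pb animals had the highest mean of Aldoc and of S100b among the 8 groups, and also that of Glul, Slc1a3 and Gja1. Aldoc had lowest, median and highest levels of 905, 1002 and 1322 CPM in male controls, 849, 1095 and 1167 in male Mn, 963, 1335 and 1459 in male Pb, beside 817, 1110.3 and 1250.4 in male Pb+Mn. Of the male Pb animals 5 of 6 lay above the control mean, and the ranges overlapped. The log2 fold change of Pb against control was 0.28 ± 0.14 (edgeR unadjusted p = 0.0438, adjusted p = 0.426). In females the same contrast was 0.04 ± 0.14 (adjusted p = 1), and the difference between the sexes was -0.24 ± 0.19 (female minus male, adjusted p = 0.996).

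S100b, which binds calcium and zinc and is made by astrocytes and also by oligodendrocytes, varied most in the Pb groups. It was at 285, 134, 302, 232, 140 and 321 CPM in male Pb 1 to 6, beside a lowest, median and highest of 140, 156 and 243 CPM in male controls, 138, 183 and 266 in male Mn and 100.0, 148 and 181 in male Pb+Mn. Of the male Pb animals 4 lay at 232 CPM or more, and 2 lay below the median of the male controls. In female Pb the animals 1 to 6 were at 166, 355, 112, 133, 70.2 and 182 CPM, the highest and the lowest level of all 48 libraries. The log2 fold change of male Pb against control was 0.48 ± 0.24 (unadjusted p = 0.0482, adjusted p = 0.431) and that of female Pb 0.03 ± 0.24 (adjusted p = 1).

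The lowest p of any member in a comparison within a sex was that of S100b in male Pb+Mn against male Pb, -0.72 ± 0.24 on the log2 scale (edgeR unadjusted p = 0.00407, adjusted p = 0.11). There S100b and Aldoc (-0.29 ± 0.14) were 2 of 10 members with p under 0.05, beside 22.3% of all genes. Without male Pb 2 the S100b value was -0.86 (edgeR adjusted p = 0.0375) and without male Pb 5 it was -0.85 (adjusted p = 0.0359), both past the threshold. These 2 animals were the lowest of male Pb in S100b, so leaving out either widens the difference by the choice of animal. In the fit of all libraries the smallest adjusted p of any gene was also 0.11. The share of all genes past the threshold in the 2 refits is not given here. With the length trend as a covariate the S100b value was -0.32 ± 0.18 (adjusted p = 0.867). The range over its 20 refits was -0.86 to -0.32, with adjusted p from 0.0359 to 0.867. The Pb by Mn interaction of S100b in males was -0.87 ± 0.34 (unadjusted p = 0.0133, adjusted p = 0.369), 1 of 10 members with p under 0.05 beside 13.1% of all genes; in females it was -0.28 ± 0.34, with 0 of 10 members under 0.05 beside 3.17% of all genes.

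The length trend also varied among the male Pb libraries. Of the 4 male Pb animals with high S100b, Pb 4 (-0.16) and Pb 6 (-0.40) lay below the trend of every male control, and Pb 1 (-0.03) and Pb 3 (-0.05) lay within their range. The lowest, median and highest values of the trend were -0.12, 0.00 and 0.09 in male controls, -0.40, -0.04 and 0.05 with Pb alone and -0.02, 0.04 and 0.11 with both metals in males. The 26 ribosomal protein genes, which are short, summed to a lowest, median and highest of 5174, 5522 and 7096 CPM in male controls, 5445, 7669 and 15323 in male Pb, beside 5149, 5821 and 7279 in male Pb+Mn. The 12 oligodendrocyte genes summed to 6179, 8582 and 15699.7 CPM in male controls, 7240, 12141 and 17079 with Pb alone and 6038, 9158 and 11515 with both metals. With the trend as a covariate the male Pb value of S100b was 0.19 ± 0.18 and that of Aldoc 0.15 ± 0.11. The 5 blood genes tested summed to 136, 177 and 244 CPM in male controls, 235, 365 and 716 with Pb alone and 229.5, 301 and 831 with both metals. The part of these measures in the S100b and Aldoc values was not tested beyond the covariate. In male Pb all 10 members had a positive fold change (median 0.10, beside 0.01 over all genes tested), and in male Pb+Mn against male Pb 0 of 10 did (median -0.11, beside -0.01), 2 comparisons that share the male Pb animals. These signs depended on the fit: in at least 1 refit Gfap, Aqp4, Gja1, Gjb6 and Aldh1l1 were negative in male Pb (lowest -0.06), and Gfap, Slc1a2 and Aldh1l1 were positive in male Pb+Mn against male Pb (highest 0.11).

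**Figure D4:**
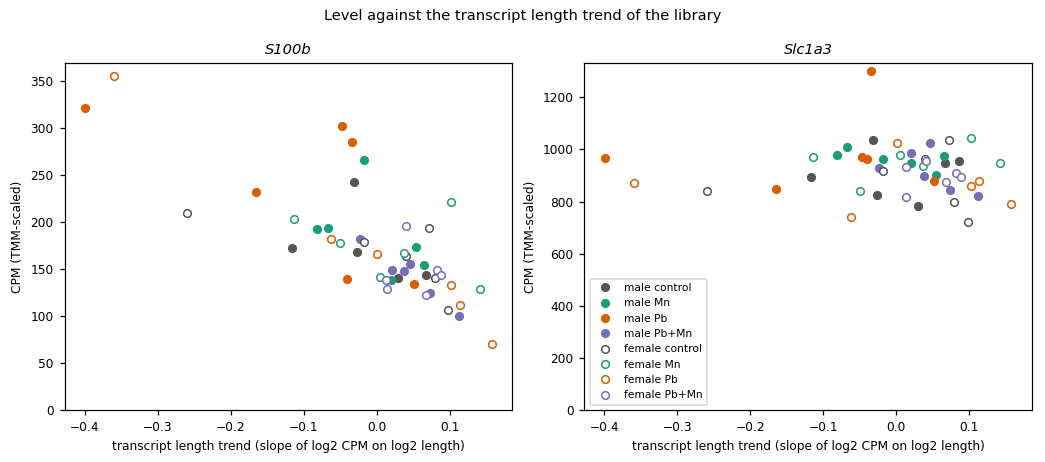
S100b (left) and Slc1a3 (right) in CPM against the transcript length trend of the same library, one point per library, males filled and females open, coloured by exposure. S100b is highest, above 300 CPM, in the 2 libraries of most negative trend and in 1 other male Pb library, while the points of Slc1a3 lie level (r = 0.01 with group means removed).

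No member differed between the sexes in its response to Mn, Pb or Pb+Mn past the adjusted threshold, in 3 comparisons in which 0% of all genes passed it. At an unadjusted p under 0.05 the members again numbered 0, beside 0.844% of all genes for Mn, 1.89% for Pb and 0.568% for Pb+Mn. For Pb, all 10 members had a lower estimate in females than in males (median difference -0.22, beside -0.01 over all genes), the SEs being 0.12 to 0.34. Slc1a2 had the other sign in at least 1 refit (highest 0.08). This comparison shares the male Pb and male control animals with the male Pb values above. Members also vary together from animal to animal, so their 10 signs are not independent observations. The share of all genes with a lower estimate in females is not given here. In controls alone 0 of 10 members differed between females and males, beside 0.0428% of all genes, and 0 had an unadjusted p under 0.05 beside 1.08% of all genes. The estimates ran from -0.14 ± 0.09 for Gja1 to 0.19 ± 0.21 for Gfap.

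From animal to animal, once the group means were removed, some pairs of members varied together. The share of pairs of other genes that pass the same test is not given here. The count of pairs is therefore not read as particular to astrocyte genes. Of the 45 pairs of members, 20 had a correlation of log2 CPM past an adjusted p of 0.05 (permutation test of 100000 shuffles within groups, two-sided, adjusted over the 45 pairs), all 20 of them positive, and 16 of these also passed by Spearman's rho. The closest pair was Gfap and Aldoc, with Pearson's r = 0.69 (permutation p = 3e-05, adjusted p = 0.00034) and rho = 0.61 (p = 8e-05, adjusted p = 0.00072). Without the 2 libraries farthest from the median of Gfap r was 0.57, and it was 0.53 in males and 0.80 in females. Aldoc and S100b followed with r = 0.66 (p = 1e-05, adjusted p = 0.00034) and rho = 0.66 (p = 1e-05, adjusted p = 0.00022), where 1e-05 is the smallest p these shuffles can give. Their r was 0.69 without the 2 farthest libraries, 0.61 in males and 0.70 in females, and 0.43 with the length trend removed (adjusted p = 0.0085).

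Slc1a2 and Slc1a3 had r = 0.61 (p = 0.00019, adjusted p = 0.00085) and rho = 0.53 (p = 0.00043, adjusted p = 0.002), with r = 0.53 without the 2 farthest libraries. Gja1 and Gjb6, whose proteins meet in the same gap junctions, did not pass (r = 0.34, permutation p = 0.025, adjusted p = 0.053; rho = 0.30, p = 0.054, adjusted p = 0.097). That pair did pass with the length trend removed (r = 0.50, adjusted p = 0.00085 by the same permutation test) and without male Pb 6 and female Pb 2 (r = 0.35, adjusted p = 0.042). Gja1 went with Slc1a3 (r = 0.55, p = 0.00018, adjusted p = 0.00085; rho = 0.51, p = 0.00053, adjusted p = 0.0022; 0.51 without the 2 farthest libraries). Gjb6 went with Aldoc (r = 0.65, p = 3e-05, adjusted p = 0.00034; rho = 0.63, p = 4e-05, adjusted p = 0.00045; 0.62 without the 2 farthest). Glul had the most partners, 7 of 9, and Slc1a3 had 6, whereas Aqp4 had 0 and Slc1a2 and Gja1 had 2 each. These counts moved with the length trend removed: Aqp4 then passed with Gfap (permutation r = 0.42, adjusted p = 0.013) and S100b (r = 0.43, adjusted p = 0.01), and Slc1a2 with 5 members.

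With the length trend removed as well, 29 pairs passed, of which 18 were among the 20. Without male Pb 6 and female Pb 2, 24 passed, including all 20. In the 24 females alone 14 pairs passed and in the 24 males alone 4, all of them among the 20; the difference between the sexes in these correlations was not tested. The points share library preparation, depth and the composition of the dissected tissue.

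**Figure D5:**
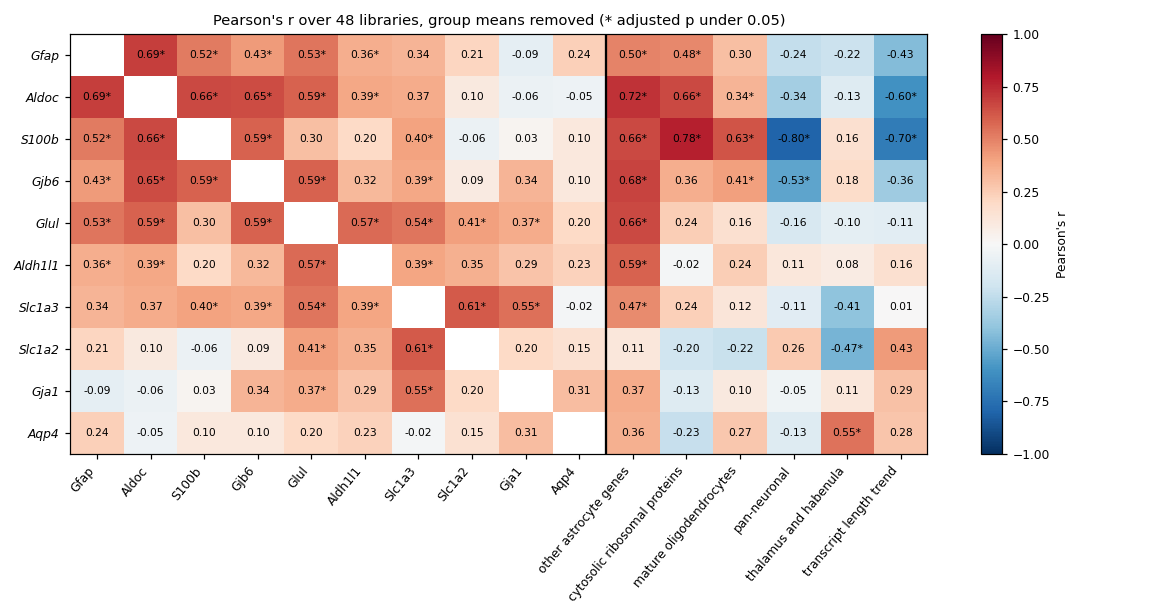
Pearson's r over 48 libraries with group means removed, between members (left of the line) and between members and the mean level of gene lists or the transcript length trend (right of the line). Stars mark an adjusted p under 0.05, red is positive and blue negative; Gfap, Aldoc, S100b, Gjb6 and Glul form the reddest block, and Aqp4 has no star among the members.

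Some members also moved with other cell types and with the length trend, 37 of 230 relations passing an adjusted p of 0.05 in the same permutation test. The share that other genes would reach is not given here, so this count is not read as particular to the members. The mean of 36 other astrocyte genes passed with 7 of 10 members: r was 0.72 for Aldoc (adjusted p = 0.00021; rho 0.65), 0.68 for Gjb6 (adjusted p = 0.00021; rho 0.66), 0.66 for Glul and 0.66 for S100b, and 0.11 for Slc1a2 (adjusted p = 0.68). S100b was negatively related to the 12 pan-neuronal genes (permutation r = -0.80, adjusted p = 0.00021; rho = -0.73; -0.69 without the 2 farthest libraries) and to the length trend (r = -0.70, adjusted p = 0.00046; rho = -0.59; -0.56 without the 2 farthest). S100b was positively related to the 26 ribosomal protein genes (r = 0.78; rho = 0.67) and to the 12 oligodendrocyte genes (r = 0.63; rho = 0.65). Aldoc was also negatively related to the length trend (permutation r = -0.60, adjusted p = 0.00035; rho = -0.55; -0.63 without the 2 farthest libraries) and positively to the ribosomal protein genes (r = 0.66, adjusted p = 0.00021; rho = 0.71; 0.77 without the 2 farthest). For Slc1a3 and Glul the r with the length trend was 0.01 and -0.11. By rho alone, Slc1a2 (r = 0.43, permutation adjusted p = 0.063, rho = 0.51, adjusted p = 0.011) passed with the trend. Gjb6 did so as well, with the other sign (r = -0.36, adjusted p = 0.086, rho = -0.46, adjusted p = 0.024).

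Aqp4 and Slc1a2 had opposite signs with the thalamus and habenula genes. Aqp4 was positively related to the thalamus and habenula genes (r = 0.55, adjusted p = 0.0021; rho = 0.58; 0.53 without the 2 farthest libraries) and negatively to the interneuron genes (r = -0.57, adjusted p = 0.00086; rho = -0.60) and the blood genes (r = -0.58, adjusted p = 0.0013; rho = -0.57). Slc1a2 was negatively related to the thalamus and habenula genes (r = -0.47, adjusted p = 0.031; rho = -0.43, adjusted p = 0.051) and positively to the CA1 pyramidal neuron genes (r = 0.57, adjusted p = 0.00035; rho = 0.58).

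The genes whose level followed each member most closely over the 48 libraries (highest r of log2 CPM with group means removed, among 13100 genes, given with no test) differed between members. For Slc1a2 they were Map2 (r = 0.90), Psd3 (0.88) and Dlg2 (0.86), of which Map2 encodes a protein of neuronal dendrites. For Aldoc they were Mapk8ip1, Ndrg2 and Metrn (0.87 each), and for S100b Arl2bp (0.91), Selenop (0.91) and Rnd2 (0.90). For Glul they were Acot11 (0.75), Tns3 (0.72) and Rapgef3 (0.71), for Slc1a3 Sowaha (0.76), Frmpd3 (0.74) and Nadk (0.71), and for Gja1 Igdcc4 (0.71), Eps8 (0.67) and Tmem255a (0.62). For Gjb6 they were Nde1, Lhfp and Timp4 (0.79, 0.79 and 0.77), for Aldh1l1 Plxnb1 and Pla2g7 (0.78 and 0.69), for Gfap Tst, Thrsp and Fth1 (0.78, 0.77 and 0.73), and for Aqp4 Kcng4, Vangl1 and Tmem47 (0.70, 0.68 and 0.68). Ndrg2 was on the list of other astrocyte genes. The part of the length trend in these correlations, including those of Slc1a2, was not tested.

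The wider pathway gave 0 calls in any exposure against control. Of the 20 genes of the glutamate and glutamine cycle, the median log2 fold change was -0.02 in male Mn and -0.02 in female Mn, each beside values within 0.01 of 0 over all genes, and -0.15 in male Pb. The glutamine carrier Slc38a2 had the lowest p, at -0.30 ± 0.14 in female Mn (adjusted p = 1), followed by glutamate dehydrogenase (Glud1), at 0.16 ± 0.08 in male Pb (adjusted p = 0.442). The neuronal glutamate transporter Slc1a1, which was chosen after its values were seen, was at 0.06 ± 0.14 in male Mn and 0.10 ± 0.14 in female Mn (adjusted p = 1 in both).

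Of the 21 other connexins and pannexins 12 had enough counts to be tested, and 0 passed. The vascular connexin Gja4 was at -0.58 ± 0.19 in male Pb+Mn and Gjc1 at -0.75 ± 0.24 in male Mn (adjusted p = 1 in both), and their median levels of 1.57 and 1.85 CPM per kb lay under those of Gja1 and Gjb6. The 15 genes of endfeet, potassium and water handling had medians between -0.03 and 0.07 in the 6 exposed groups, with Aqp9 (0.75 ± 0.34, adjusted p = 0.41) and Mlc1 (0.18 ± 0.11, adjusted p = 0.495) in male Pb as the lowest p.

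Of 31 genes known to be high in reactive astrocytes 27 were tested and 0 passed. Their median log2 fold change was -0.27 in female Pb (0.01 over all genes), where 0 of 27 were positive, with Cd44 at -0.72 ± 0.20 (unadjusted p = 0.000675, adjusted p = 1) and Serping1 at -0.51 ± 0.20 (adjusted p = 1). Their summed level had a lowest, median and highest of 244, 419 and 466 CPM in female Pb, 379, 445 and 570.2 in female controls, 356, 416 and 443.5 in female Mn and 390.0, 399 and 434 in female Pb+Mn, which all overlap. In males these were 363, 396 and 497 CPM in controls, 333, 384 and 441 in Mn, 326, 362 and 424 in Pb and 356, 406 and 435 in Pb+Mn. A median summed level under that of controls was thus not particular to female Pb. The median fold changes of this list in the other exposed groups are not given here. Of the other S100 genes 7 of 12 were tested, and in male Pb all 7 had a positive value (median 0.63, beside 0.01 over all genes), with 0 past the adjusted threshold. S100a9, a gene of blood neutrophils with a median of 0.331 CPM over all libraries, was at 2.18 ± 0.72 and S100a6 at 0.80 ± 0.28 (edgeR adjusted p = 0.399 in both). Both have transcripts shorter than a kilobase, with medians of 0.638 and 10.8 CPM per kb beside 0.331 and 7.86 CPM. The mean length trend was -0.11 in male Pb and 0.00 in male controls, and its part in these S100 values was not tested. The 36 other astrocyte genes had a median of 0.14 in male Pb with 28 positive, -0.03 in male Mn with 14 positive, and 0.08 in female Mn with 31 positive, and 0 passed; Chrdl1 was at 0.63 ± 0.25 in male Pb (adjusted p = 0.399) and Plpp3 at 0.26 ± 0.09 in female Mn (adjusted p = 1).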

How the data were processed

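Hippocampal RNA of 48 animals was sequenced with a stranded poly(A) kit, per the labels' protocols. The deposited table holds raw whole-number read counts per gene. Per the submitters' processing notes, Trim Galore 0.6.9, STAR 2.7.10b and featureCounts 2.0.6 were used with build GRCm39. Strand and multi-mapping settings are not given in the sources used here. Symbols, transcript lengths and chromosomes came from GENCODE M21, on another build, and 51884 of 57126 identifiers matched a symbol.

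The main test was edgeR 4.0.16 in R 4.3.3 (glmQLFit, glmQLFTest, two-sided, TMM, filterByExpr), all 48 libraries in 1 fit with a mean per group, and Benjamini-Hochberg adjustment over 16360 genes at 0.05. There were 20 planned comparisons and 2 added after the data were seen. Approximate SEs were obtained from each fold change and its F statistic. Log2 CPM has a prior count of 2. The length trend used 13037 genes whose mean log2 CPM reached 1. Alternatives were RLE size factors, no filter, DESeq2 1.42.0, limma 3.58.1 voom, fewer groups, a replicate block, the length trend as a covariate, leaving out libraries and a threshold of 0.1. The test was checked on simulated data. Between libraries of a group the chi-square of counts per degree of freedom was 8.9 or more, so none was a repeat. The members, the 21 gene lists and the naming rule (all members, the 2 genes of smallest p of each list described, the 3 genes most like each member) were chosen with earlier results of these data known. Lists are described by counts and medians, and the lists used only as levels per library are not tested. 326 of 327 list entries matched the table. A gene that the naming rule picked is not reported here.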

Additional observations from a re-analysis of the deposited data

Results flagged for a closer look

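Of 80 sets of 6 animals (10 genes in 8 groups), 8 held a highest animal whose gap to the next, as a share of the group's range, was over Dixon's 95% critical value; chance flags about 1 in 20 such sets. Gfap was at 1336 CPM in female control 1, with the next animal at 748 CPM. Slc1a3 was at 1303 CPM in male Pb 1 (next 970.4 CPM), and Glul in the same animal at 3242 CPM (next 2238 CPM). Glul was at 2531 CPM in male control 4 (next 1994 CPM), where S100b was also separate at 243 CPM (next 172 CPM). S100b was at 196 CPM in female Pb+Mn 3 (next 148 CPM). Aldh1l1 was at 91.2 CPM in male Pb+Mn 3 (next 70.2 CPM) and at 135 CPM in female Mn 6 (next 85.2 CPM).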

How the results depend on the processing

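The count of members past the threshold was 0 in all 22 comparisons under every other tool, scaling, filter, covariate and set of groups tried and at a threshold of 0.1, and the replicate block changed no call (0 members past the threshold with it). For these settings the share of all genes past the threshold is not given here, so the 0 is not read as particular to the members. No consistent pairing by replicate number was seen: same-numbered animals of different groups correlated between -0.344 and 0.31, with 6 of 36 pairs over 0.1. In 5 of the 36 the same-numbered animal had the highest correlation. What a number marks is not in the labels, and a shared litter or batch was not tested. Leaving out single libraries gave counts of 0 to 1. The 1 was S100b in male Pb+Mn against Pb without male Pb 2 or male Pb 5, the animals of that group lowest in S100b. Of 6440 recomputed fold changes, 428 had another sign than reported, none of them past the threshold in either fit, and 30 moved by over 1 SE. The number of correlated pairs was 20 with a prior count of 0.5, 29 with the length trend removed, 24 without male Pb 6 and female Pb 2, 14 in females alone and 4 in males alone, where each sex has 24 libraries. With the length trend removed, Slc1a2 with S100b turned from r = -0.06 to 0.38 (adjusted p = 0.039). The spread between animals limits these values: the SE between 2 groups was 0.09 for Slc1a3 and Gja1 and 0.24 for S100b.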
